A study of Saccharomyces cerevisiae with 11 samples.

Results

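R11ΔS15 and R11 are yeast strains whose only histone H2A carries an arginine inserted at position 11 of the N-terminal domain (NTD), and they differ in serine 15, which R11ΔS15 lacks and R11 retains. RNA from R11ΔS15 (2 arrays) was compared with RNA from R11 (2 arrays), so that 4 of the 11 arrays of the series entered the comparison, chosen by the strain names in the labels. The other arrays, 2 of ΔS15 (serine deleted, no arginine inserted), 3 of WT and 2 of K11 (a lysine inserted at position 11), were used for the estimate of the spread and for the same deletion without the arginine. All strains were haploid *Saccharomyces cerevisiae* of mating type a with the alleles hta1-1, hta2-1, ura3-52 and his3, derived from TSY107, in which both chromosomal H2A genes are deleted according to the methods. H2A came from a centromeric HIS3 plasmid with HTA1, WT or mutated by site-directed mutagenesis, and a strain is 1 constructed line. Cells were grown without treatment in YPD, a rich glucose medium, from an OD600 of 0.2 to 0.8, in log phase. The genotype label of both R11ΔS15 arrays names a lysine at position 11, whereas their titles, source name, strain number and the strain list name arginine, and arginine was taken here.

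H2A is wrapped by DNA in the nucleosome together with H2B, H3 and H4, and its NTD reaches out of the particle close to the DNA. Arginines and lysines of the tail carry positive charge and can contact the DNA backbone, while serines are uncharged and can be phosphorylated. Yeast has a pair of H2A genes, HTA1 and HTA2, so a strain with a single plasmid copy has its whole canonical H2A in the mutant form.

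The forward mutagenesis primers are shown because they are the only difference designed between the strains. Capitals mark the inserted arginine codon and, where present, the serine codon that was deleted.
R11_f: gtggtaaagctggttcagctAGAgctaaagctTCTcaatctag
R11ΔS15_f: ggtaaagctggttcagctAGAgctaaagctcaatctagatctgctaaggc
Both primers hold AGA, an arginine codon, between the same bases. In the R11ΔS15 primer the serine codon TCT is missing, and the following codon CAA directly joins the preceding gct. Whether a probe of the array covers these bases is not known here, so the signals do not check the genotype.

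HTA1 (YDR225W, chromosome IV, 915530 to 915928 in the R64 assembly) had a signal of 6190 and 6838 in R11ΔS15, against 7562 and 7046 in R11. The groups did not overlap, as for 20.4% of all genes in this direction. The log2 difference was -0.17 ± 0.08 (SE), and its 95% interval ran from -0.34 to 0.00. ΔS15 had 6907 and 6699, and WT replicates 1, 2 and 3 had 7643, 7548 and 7053. ΔS15 and WT replicate 3 share a spike-in set with R11ΔS15, as described below. A probe set of HTA2 alone had 276.6 and 375.9 in R11ΔS15, against 412.0 and 265.7 in R11, and these groups overlapped. The brighter HTA2 probe set, of the kind that other transcripts share, had 4651 and 5202 in R11ΔS15, against 6303 and 5603 in R11, and cannot be assigned to 1 of the H2A genes. HIS3, the plasmid marker, had 8776 and 6853 in R11ΔS15, against 7675 and 7351 in R11, and URA3 had 98.6 and 71.7, against 122.7 and 108.9. Of the a-cell markers, STE2, the receptor for alpha-factor, had 4192 and 4002 in R11ΔS15 and 4543 and 4606 in R11. BAR1 was the only marker of the 6 that was higher in R11ΔS15, with 1283 and 2547, against 1170 and 1348 in R11. MFA1, BAR1 and AGA2 overlapped between the strains. The summed signal of the 6 a-cell markers was 13984 to 14311 in R11ΔS15 and 15007 to 15456 in R11, and that of the 4 alpha-cell markers was 897.6 to 1188 and 989.8 to 1142. Single a-cell markers had 624 to 4670 in R11ΔS15 and 803 to 5587 in R11, and single alpha-cell markers had 29.1 to 815 and 53.8 to 800, and levels of different probe sets do not share a scale. The summed signal of 4 sporulation markers was 407.8 to 449.5 in R11ΔS15 and 438.6 to 454.1 in R11. For 6 genes expressed once glucose is gone, it was 3325 to 4183 in R11ΔS15 and 3309 to 4299 in R11, so these groups overlapped. Most of that sum was ADH2, with 3099 and 2641 in R11ΔS15, against 2520 and 3288 in R11. ICL1, MLS1 and JEN1 had log2 differences of 0.27, 0.20 and 0.07, and FBP1 and PCK1 of -0.30 and -0.41. Each of the 6 overlapped between the strains.

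The arrays fell into separate sets by the bacterial and phage RNAs that are added to every hybridization mix, and the sets coincided with the strains compared. The mean log2 signal of the 12 spike-in probe sets was 10.64 and 10.63 in R11ΔS15, against 10.86 and 10.84 in R11. The lower set held R11ΔS15, ΔS15 and WT replicate 3, and the higher set held R11, K11 and WT replicates 1 and 2. The ratio of 3′ to 5′ signal of ACT1, a measure of RNA or labeling quality, was 1.09 and 1.10 in R11ΔS15, against 1.30 and 1.35 in R11, and for TDH1 it was 1.14 and 1.38, against 1.43 and 1.60. Strain and spike-in set therefore cannot be told apart for R11ΔS15 and R11. WT was the only strain in both sets, and the log2 difference of WT replicate 3 minus WT replicates 1 and 2, where the genotype is the same, is given beside the results as the WT set difference.

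No gene passed the test between R11ΔS15 and R11. Of 5415 genes, 0 (0%) had an adjusted p under 0.05 (limma, Benjamini-Hochberg), the smallest adjusted p was 0.369, and 635 genes (11.7%) had an unadjusted p under 0.05, of which 309 were higher and 326 lower in R11ΔS15. The median log2 difference of all genes was 0.03, and 95.4% of genes differed by less than 1.5-fold. In R11ΔS15, 32 genes (0.591%) were 2-fold or more higher and 2 genes (0.0369%) 2-fold or more lower. Both R11ΔS15 arrays were above both R11 arrays for 1348 genes (24.9%) and below both for 1104 genes (20.4%). Without R11ΔS15 replicate 1 the number of genes 2-fold apart was 115, and without R11 replicate 2 it was 68, when 1 gene passed the test, YJR154W. With a fit of only the 4 arrays of R11ΔS15 and R11, 17 genes passed, 8 of them higher and 9 lower. With 2 arrays against 2, an exact two-sided permutation test of a single gene cannot go below p = 0.333. The labels do not say whether the 2 arrays of a strain came from separate cultures, so the p-values measure the spread between arrays. In the main fit, the WT arrays of both spike-in sets entered this spread as 1 group. The p-values and standard errors therefore also carry the WT set difference, and not replicate noise alone. Its median size over genes was 0.19 on the log2 scale, beside 0.16 for R11ΔS15 minus R11. The fit of only the 4 arrays leaves WT out.

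Of the 34 genes that differed 2-fold, 33 had a WT set difference of the same sign (73.6% of all genes had), 16 of them of 2-fold or more, and only 3 still differed 2-fold in the same direction with the spike-in set as a term in the fit. Over all 5415 genes, 51 were 2-fold or more higher and 1 was 2-fold or more lower by the WT set difference. Of the 34, 15 had a mean signal under 50, 6 lay on chromosome IX, and 2 had shared probe sets. Across the 5415 genes, the difference between R11ΔS15 and R11 correlated with the WT set difference, which uses none of the same arrays, with r = 0.63. Genes are not independent replicates, and both differences run from the lower to the higher spike-in set. Over the 5013 genes with a mean signal above 50 and off chromosome IX, r was 0.67. The median WT set difference of all genes was 0.08, and 61.6% of genes were higher in WT replicate 3. With the spike-in set as a term, the median of all genes was -0.05, and 3280 of 5415 were lower. List values with the term and WT set differences are to be read beside these.

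**Figure D1:**
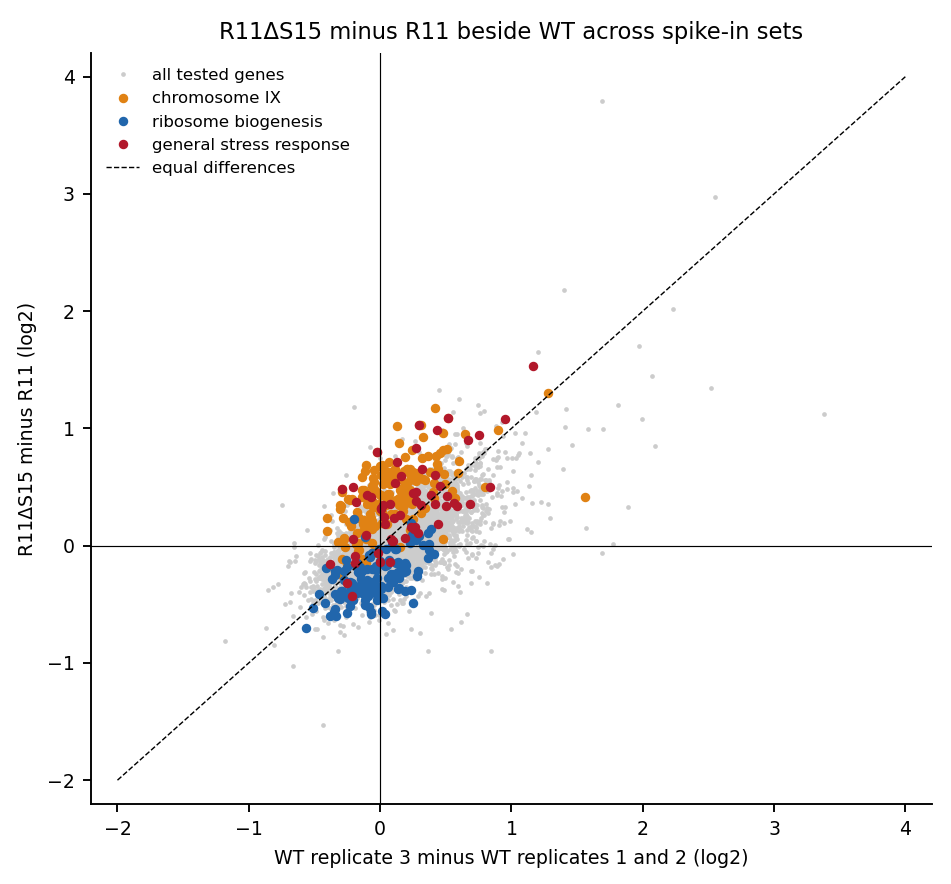
Each point is 1 of 5415 genes, with the log2 difference of WT replicate 3 minus WT replicates 1 and 2 on the x axis and of R11ΔS15 minus R11 on the y axis. Ribosome biogenesis genes lie mostly below the dashed line of equal differences, general stress genes mostly above 0 on the y axis, and chromosome IX genes above the line.

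Among the genes with the largest differences, several encode enzymes and transporters of carbon and amino acid metabolism. HXK1, the hexokinase isoform that glucose represses, had 2149 and 2023 in R11ΔS15, against 865 and 602 in R11, a log2 difference of 1.53 ± 0.41 (SE). In the other strains HXK1 had 1698 and 1288 in ΔS15, and 793, 387 and 1243 in WT, the last of these in the lower spike-in set. The WT set difference of HXK1 was 1.17, and with the spike-in set as a term the difference of R11ΔS15 and R11 was 0.37. DIP5, a permease for acidic amino acids, had 1384 and 1388 in R11ΔS15, against 516 and 703 in R11, with a log2 difference of 1.20 ± 0.26 and a WT set difference of 0.74. PDH1, which acts in propionate metabolism, had 515 and 399 in R11ΔS15, against 156 and 268 in R11, and differed by 1.15 ± 0.36, with a WT set difference of 0.79. NDI1, the internal NADH dehydrogenase of the mitochondrion, had 408 and 529 in R11ΔS15, against 199 and 223 in R11. Its log2 difference of 1.14 ± 0.33 was matched by a WT set difference of 1.19. NCE103, the carbonic anhydrase, had 5602 and 7144 in R11ΔS15, against 2312 and 3549 in R11, and differed by 1.14 ± 0.38, beside 0.56 in WT. None of the groups of these 5 genes overlapped.

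The other genes in the upper set were uncharacterized or dim. YLR108C had 561 and 971 in R11ΔS15, against 228 and 422 in R11, a log2 difference of 1.25 ± 0.34 beside a WT set difference of 0.60. YJL107C had 64.8 and 90.2 in R11ΔS15, against 20.4 and 45.6 in R11, and differed by 1.33 ± 0.51 beside 0.45 in WT. WHI5, a repressor of the G1/S transition, had 43.9 and 47.2 in R11ΔS15 and 11.0 and 19.0 in R11, and differed by 1.66 ± 0.47 beside 1.20 in WT. For the dim genes ATP10, CTF19, YCL042W and YJU2, with signals of 86.4 or less on the 4 arrays, the WT set difference was the larger: 2.07, 2.52, 1.81 and 1.42 in WT, against log2 differences of 1.45, 1.34, 1.20 and 1.16 between R11ΔS15 and R11. ATP10 acts in assembly of the mitochondrial ATP synthase, CTF19 is a kinetochore protein and YJU2 a splicing factor.

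Differences in the lower direction were smaller. The 2 genes that were 2-fold or more lower fell outside the choice of named genes. YMR175W-A, at -1.53, had 1 array below background, and HSP30, at -1.03, overlapped between the strains. FRE4, a siderophore reductase, had 232 and 201 in R11ΔS15, against 368 and 440 in R11, a log2 difference of -0.90 ± 0.24 beside a WT set difference of -0.32. GPD2, a glycerol-3-phosphate dehydrogenase of redox balance, had 342 and 181 in R11ΔS15, against 454 and 422 in R11. Its difference was -0.82 ± 0.37, and its WT set difference of -1.18 was larger. Several genes of ribosome assembly were in this group. REX4, a putative exonuclease of pre-rRNA processing, had 550 and 469 in R11ΔS15, against 943 and 763 in R11 (-0.74 ± 0.20, WT set difference -0.31). CGR1, which acts in processing of pre-rRNA for the large subunit, had 389 and 491 in R11ΔS15, against 854 and 595 in R11 (-0.71 ± 0.30, WT set difference -0.48). UTP23, a factor of the small subunit processome, had 2004 and 1629 in R11ΔS15, against 3221 and 2696 in R11 (-0.71 ± 0.21, WT set difference -0.56). Those 3 genes were below both R11 arrays on both R11ΔS15 arrays. RPO21, the largest subunit of RNA polymerase II, had 2191 and 1544 in R11ΔS15, against 3335 and 2683 in R11 (-0.70 ± 0.32, WT set difference -0.87). APL5, a subunit of the AP-3 adaptor, had 768 and 781 in R11ΔS15, against 1319 and 1212 in R11 (-0.71 ± 0.25, WT set difference -0.50). EFR3, a plasma membrane protein, had 228 and 274 in R11ΔS15, against 371 and 450 in R11, and differed by -0.71 ± 0.26. The WT set difference of EFR3 had the opposite sign, 0.24. The uncharacterized YFL051C, YER187W, YNR075C-A and YKL068W-A differed by -0.89, -0.76, -0.75 and -0.75, and their WT set differences were 0.37, -0.28, 0.05 and 0.30. YER187W had 205 and 79.2 in R11ΔS15, against 219 and 213 in R11, and YKL068W-A had 271 and 162, against 345 and 358, so that R11ΔS15 replicate 2 was much the lower for both.

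**Figure D2:**
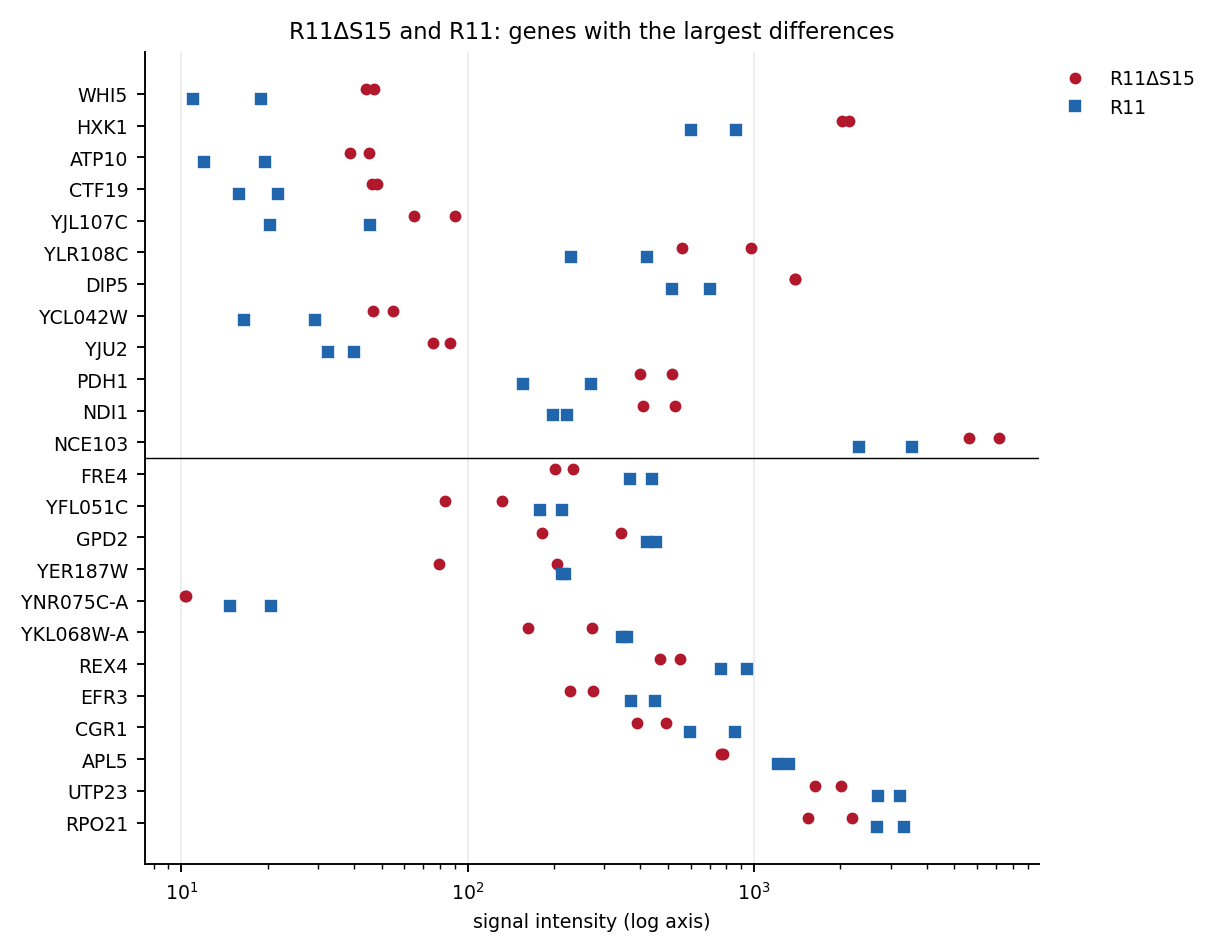
Signal intensity on a log axis for 12 genes in each direction, with 1 point per array, R11ΔS15 as circles and R11 as squares. They had the largest differences among genes off chromosome IX with an unshared probe set and all 4 arrays above background. Larger differences outside this choice, such as YJR154W at 3.79, are not shown. The arrays of the strains did not overlap for any gene shown, a condition for the choice, and no gene passed the test.

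Ribosome biogenesis genes, which make and assemble pre-rRNA into subunits, were lower in R11ΔS15 in 119 of 131 members, with a median log2 difference of -0.30, against 0.03 for all genes. Both R11ΔS15 arrays were below both R11 arrays for 97 of the 131 (74.0%, beside 20.4% of all genes), and 0 passed the test. The members ranged from -0.71 for UTP23 to 0.23 for SQT1. NOG1, a GTPase of the large subunit precursor, had 1540 and 1689 in R11ΔS15, against 2482 and 2414 in R11, a difference of -0.60 ± 0.14. ERB1, which acts with NOP7 in the same pathway, had 1379 and 1372 in R11ΔS15, against 2148 and 2013 in R11, a difference of -0.60 ± 0.14. NHP2, a core protein of box H/ACA particles, had 5001 and 4920 in R11ΔS15, against 7025 and 6490 in R11, a difference of -0.44 ± 0.11. In ΔS15, NOG1 had 1763 and 2038, in WT replicate 3 it had 2041, and in WT replicates 1 and 2 it had 2506 and 2656. The R11ΔS15 arrays were thus the lowest of all 11 for NOG1, with the other arrays of the lower spike-in set next.

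The median WT set difference of the ribosome biogenesis genes was -0.07, and with the spike-in set as a term the median was -0.22, with 117 of 131 members lower. Both R11ΔS15 arrays were below the other 3 arrays of the lower set, 1 of WT and 2 of ΔS15, for 48 of the 131 members, against 6.96% of all genes, and below all other 9 arrays for 34, against 2.77% of all genes. Subunits and factors of RNA polymerases I and III, which transcribe rRNA and tRNA, had a median of -0.09, with 23 of 35 lower and 15 below both R11 arrays on both R11ΔS15 arrays (20.4% of all genes were).

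Cytosolic ribosomal proteins were lower in 118 of 128 members, with a median of -0.17. Both R11ΔS15 arrays were below both R11 arrays for 98 members (76.6%, beside 20.4% of all genes). They were above both for 3 (2.34%, beside 24.9% of all genes). RPL3, of the large subunit, had 8216 and 7956 in R11ΔS15, against 9606 and 10153 in R11, a difference of -0.29 ± 0.07. RPS25B, of the small subunit, had 5605 and 5526 in R11ΔS15, against 6815 and 6975 in R11, a difference of -0.31 ± 0.07. The 75 genes of the large subunit and the 53 of the small subunit had medians of -0.17 and -0.18. The WT set difference of the ribosomal proteins was close in size, with a median of -0.14 and 107 of 128 members lower. With the spike-in set as a term their median was -0.02, with 80 members lower and 48 higher. Both R11ΔS15 arrays were below the other 3 arrays of the lower set for 59 members (46.1%, beside 6.96% of all genes). They were above those 3 for 2 members (6.17% of all genes were). For 47 members they were below all other 9 arrays (36.7%, beside 2.77% of all genes), and for 0 above all 9 (2.68% of all genes were). Their median signal was 6652, and the 106 other genes with a mean signal of 5000 or more, outside the ribosomal protein, translation factor and glycolysis lists, also had a median of -0.12, with 89 lower. Many ribosomal proteins come from near-identical gene pairs, and 23 of the 128 had shared probe sets, whose signal cannot be assigned to 1 copy. Translation factors had a median of -0.11, with 26 of 36 lower. Both R11ΔS15 arrays were below both R11 arrays for 17 of them (20.4% of all genes were) and above both for 5 (24.9% of all genes were). Unlike for the ribosomal proteins, the WT set difference was small, at -0.03. With the set as a term the median was -0.10, with 28 of 36 lower, whereas TEF2 was then at 0.053. TEF2, which encodes elongation factor 1-alpha, had 7382 and 7203 in R11ΔS15, against 8844 and 9194 in R11.

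General stress response genes, which yeast induces in many adverse conditions through Msn2 and Msn4, were higher in R11ΔS15 in 51 of 59 members, with a median of 0.35. Both R11ΔS15 arrays were above both R11 arrays for 35 of the 59 (59.3%, beside 24.9% of all genes), and 0 passed the test. DDR2, a small protein induced by DNA damage and other stresses, had 784 and 913 in R11ΔS15, against 431 and 425 in R11, a difference of 0.98 ± 0.19 and the lowest unadjusted p of all genes. GRE3, an aldose reductase, had 1570 and 1548 in R11ΔS15, against 1137 and 1015 in R11, a difference of 0.54 ± 0.11. GLC3, the glycogen branching enzyme, had 477 and 531 in R11ΔS15, against 288 and 251 in R11, a difference of 0.90 ± 0.22. The exceptions included SPI1, a cell wall protein, at -0.43 and HOR7 at -0.31. The median WT set difference of the list was 0.16, with 45 of 59 members higher, and with the spike-in set as a term the median was 0.13, with 38 higher and 21 lower. Both R11ΔS15 arrays were above the other 3 arrays of the lower set for 10 members (6.17% of all genes were) and above all other 9 arrays for 10 (2.68% of all genes were). Trehalose and glycogen genes, which make the storage carbohydrates, had a median of 0.26, with 18 of 20 higher and 10 above both R11 arrays on both R11ΔS15 arrays (24.9% of all genes were), beside a WT set difference of 0.22 and a median of 0.05 with the set as a term. Without R11 replicate 1 the median was 0.14, and without R11 replicate 2 it was 0.41. TPS1, the trehalose-6-phosphate synthase, had 2361 and 2359 in R11ΔS15, against 1514 and 1589 in R11, and TSL1, a subunit of the same complex, had 1138 and 1655, against 842 and 708. Heat shock chaperones had a median of 0.14, with 26 of 32 higher, 0.01 with the set as a term, 0.06 without R11 replicate 1, 0.08 without R11ΔS15 replicate 2 and 0.24 without R11 replicate 2. Among them CUR1, a sorting factor for misfolded proteins, had 296 and 370 in R11ΔS15, against 175 and 155 in R11.

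**Figure D3:**
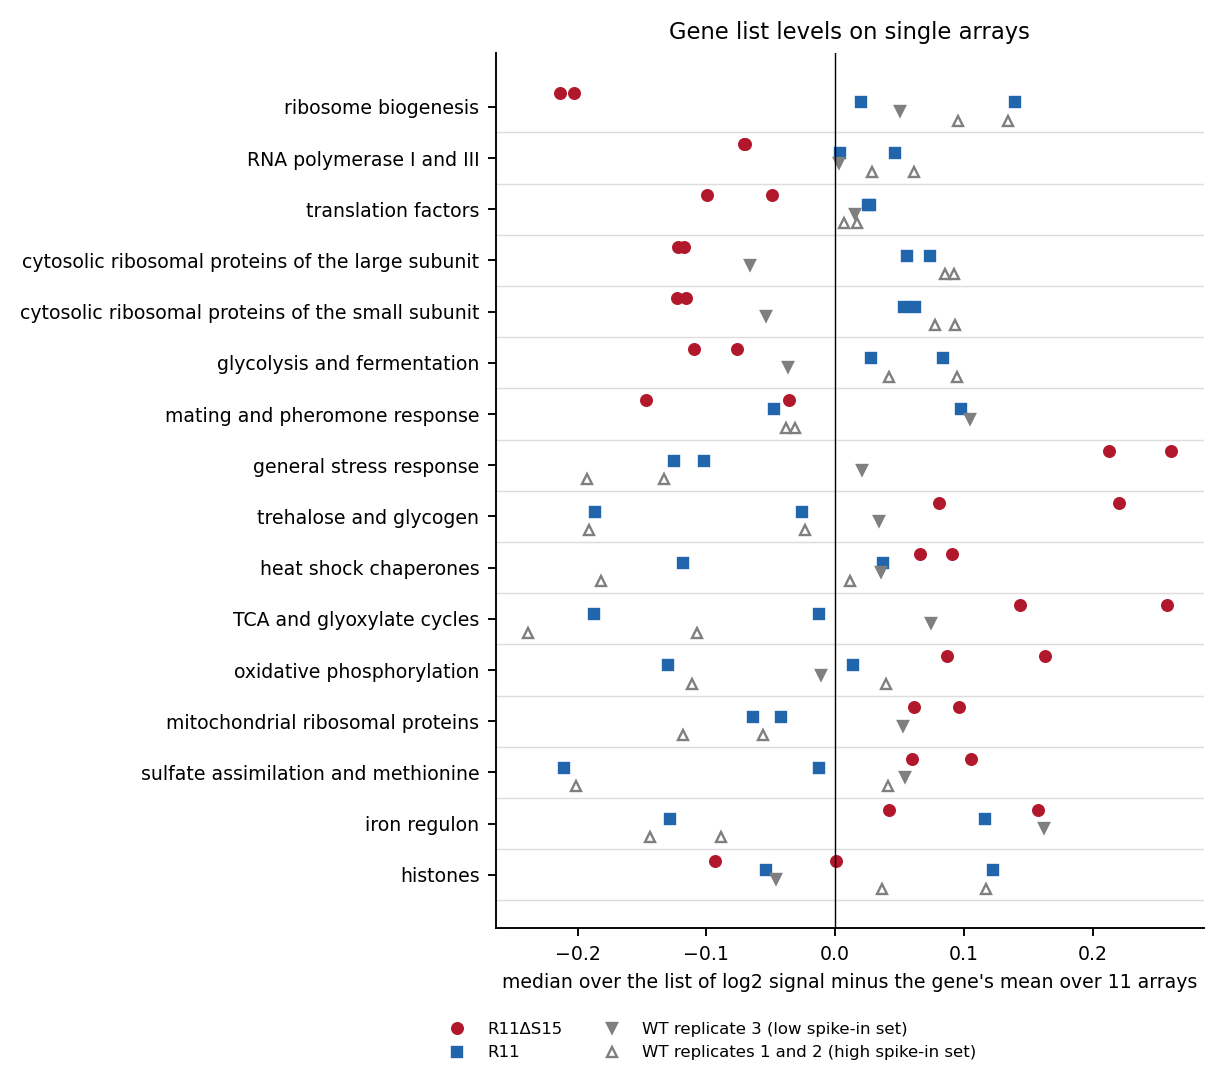
For 16 gene lists, the x axis gives the median over the list of the log2 signal on an array minus the mean of the gene over 11 arrays, with 1 point per array of R11ΔS15, R11 and WT. For ribosome biogenesis the R11ΔS15 arrays lie at -0.21 and -0.20 and WT replicate 3 at 0.05, whereas for ribosomal proteins of the large subunit WT replicate 3 lies at -0.07, on the side of the R11ΔS15 arrays at -0.12 and -0.12.

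Most mitochondrial energy genes were higher and most glycolytic genes lower in R11ΔS15. Genes of the TCA and glyoxylate cycles were higher in 25 of 27 members, with a median of 0.32. Both R11ΔS15 arrays were above both R11 arrays for 17 of them (24.9% of all genes were) and below both for 2 (20.4% of all genes were). The median was 0.19 without R11 replicate 1 and 0.46 without R11 replicate 2. CIT1, the mitochondrial citrate synthase, had 3369 and 3176 in R11ΔS15, against 1646 and 1957 in R11, a difference of 0.87 ± 0.20, and CIT2, its peroxisomal isoform, had 1987 and 2763, against 1504 and 1258. SDH2, of succinate dehydrogenase, had 901 and 846 in R11ΔS15, against 576 and 481 in R11. The WT set difference of the list was 0.25, and the median with the set as a term was 0.10. Oxidative phosphorylation genes were higher in 38 of 43 members, with a median of 0.16. Both R11ΔS15 arrays were above both R11 arrays for 19 of them (44.2%, beside 24.9% of all genes). They were below both for 2 (4.65%, beside 20.4% of all genes). The median was 0.25 without R11 replicate 1 and 0.08 without R11 replicate 2. CYT1, which encodes cytochrome c1, had 1563 and 1502 in R11ΔS15, against 833 and 898 in R11, a difference of 0.83 ± 0.24. INH1, the inhibitor of the ATP synthase, had 881 and 1084 in R11ΔS15, against 590 and 563 in R11, a difference of 0.76 ± 0.20. For this list the WT set difference was 0.02 and the median with the set as a term was also 0.16, with 36 of 43 higher. Both R11ΔS15 arrays were above the other 3 arrays of the lower set for 5 members (11.6%, beside 6.17% of all genes). They were above all other 9 arrays for 1 (2.33%, beside 2.68% of all genes). Relative to the mean of 11 arrays, the list lay at 0.09 and 0.16 on the R11ΔS15 arrays and at 0.15 and -0.03 on the ΔS15 arrays. HAP1, the heme-dependent activator, was an exception at -0.59. Mitochondrial ribosomal proteins had a median of 0.11, with 58 of 71 higher, beside 0.12 in WT and 0.00 with the set as a term. MRP1 of that list had 1003 and 1265 in R11ΔS15, against 638 and 720 in R11.

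Of 25 glycolysis and fermentation genes, 17 were lower and 14 were below both R11 arrays on both R11ΔS15 arrays (20.4% of all genes were), with a median of -0.18, or -0.11 without R11 replicate 2. CDC19, the major pyruvate kinase, had 7733 and 7399 in R11ΔS15, against 9340 and 9460 in R11. GPM1, phosphoglycerate mutase, had 8350 and 8030 in R11ΔS15, against 9775 and 10307 in R11, and TPI1, triosephosphate isomerase, had 7991 and 7602, against 9216 and 9506. These are among the brightest genes of the arrays. The WT set difference of the list was -0.09, and its median with the set as a term was -0.03. Genes that glucose represses had a median of 0.22, with 18 of 26 higher. It was 0.28 for R11ΔS15 replicate 1 and 0.0027 for R11ΔS15 replicate 2, so it rests on a single array. It was 0.08 without R11 replicate 1, 0.07 without the members on chromosome IX and -0.08 with the set as a term. SUC2, invertase, had 809 and 1139 in R11ΔS15, against 446 and 552 in R11, and GUT2, the mitochondrial glycerol-3-phosphate dehydrogenase, had 472 and 910, against 293 and 351, and both lie on chromosome IX. CAT2, carnitine acetyltransferase, had 504 and 461 in R11ΔS15, against 337 and 419 in R11.

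Lists of nutrient uptake and synthesis had medians of the opposite sign or near 0 once the spike-in set was a term. The median of all genes was then -0.05. Amino acid permeases had a median of 0.16, with 19 of 27 higher, beside a WT set difference of 0.32, and the median was -0.05 with the set as a term. It was 0.06 without R11 replicate 1, 0.07 without R11ΔS15 replicate 1 and 0.32 without R11 replicate 2. GAP1, the general permease, had 306 and 319 in R11ΔS15, against 194 and 261 in R11. The iron regulon had a median of 0.26 with 21 of 28 higher, a WT set difference of 0.28 and a median of -0.14 with the set as a term. Without R11 replicate 1 its median was 0.02, without R11 replicate 2 it was 0.29 and without R11ΔS15 replicate 2 it was 0.12. MRS4, a mitochondrial iron transporter, had 405 and 377 in R11ΔS15, against 269 and 286 in R11. Sulfate assimilation and methionine genes had a median of 0.18 with 23 of 27 higher, beside 0.15 in WT and 0.02 with the set as a term, and 0.10 without R11 replicate 1. MET2 of that pathway had 272 and 330 in R11ΔS15, against 174 and 196 in R11. Pyrimidine synthesis and marker genes, taken as 1 list, had a median of -0.12, with 8 of 13 lower, and 0.01 with the set as a term. URA4, dihydroorotase, had 3093 and 2300 in R11ΔS15, against 3772 and 3607 in R11. Phospholipid and fatty acid genes had a median of 0.11, with 21 of 32 higher, and -0.02 with the set as a term, and each array of R11ΔS15 or R11 left out gave 0.04 to 0.08. NEM1, a phosphatase that activates phosphatidate phosphatase, had 282 and 236 in R11ΔS15, against 127 and 156 in R11.

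Mating and pheromone response genes were lower in 23 of 31 members, with a median of -0.16, and this list went the other way in WT, with a WT set difference of 0.14. With the spike-in set as a term the median was -0.20, with 29 of 31 lower, beside -0.05 and 3280 of 5415 for all genes. STE12, the transcription factor of the pathway, had 654 and 701 in R11ΔS15, against 870 and 938 in R11, a difference of -0.42 ± 0.16. AGA1, the anchor of a-agglutinin, had 726 and 559 in R11ΔS15, against 794 and 1038 in R11, and PRM4 had 466 and 347, against 530 and 526. R11ΔS15 replicate 1 and R11 differed less for this list, with a median of -0.06, than R11ΔS15 replicate 2 and R11, with -0.23, and without R11 replicate 2 the median was -0.05. Of the 31 members, 9 were below both R11 arrays on both R11ΔS15 arrays (20.4% of all genes were). The 6 a-cell genes had a median of -0.18 and the 4 alpha-cell genes -0.21. The alpha-cell median was 0.13 in R11ΔS15 replicate 1 and -0.43 in R11ΔS15 replicate 2, so it rests on a single array.

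Histone genes other than HTA1 and HTA2 differed by 0.51 or less in size. HHT2, a histone H3 gene, had 2980 and 4850 in R11ΔS15, against 2891 and 2464 in R11, a difference of 0.51 ± 0.18 with a WT set difference of -0.21. HTB1, of histone H2B, had 6076 and 5787 in R11ΔS15, against 6839 and 6342 in R11, a difference of -0.15 ± 0.09. HHT1, HHF1, HTB2, HTZ1, CSE4 and HHO1 overlapped between the strains and differed by -0.07 to -0.01. The median of the 10 histone genes was -0.06, with 9 lower. Their WT set difference was -0.14, with 10 of 10 lower. With the set as a term the median was 0.06, with 7 higher. HHF1 was read by a shared probe set. Histone regulators and chaperones had a median of 0.10, with 14 of 22 higher and a WT set difference of 0.17. Their median was 0.02 without R11 replicate 1 and 0.21 without R11 replicate 2. Among them POB3, a subunit of the chaperone FACT, had 1749 and 1910 in R11ΔS15, against 1178 and 1380 in R11, a difference of 0.52 ± 0.16 beside 0.46 in WT. NAP1, a chaperone of H2A and H2B, had 2326 and 2503 in R11ΔS15, against 1916 and 1892 in R11. Histone methyltransferases and ubiquitin enzymes had a median of 0.11, with 11 of 17 higher, but -0.02 without R11ΔS15 replicate 1 and 0.03 without R11 replicate 2. Among them SWD1, a subunit of the H3 methyltransferase COMPASS, had 480 and 404 in R11ΔS15, against 212 and 298 in R11. The WT set difference of SWD1 was 0.90, and its difference between R11ΔS15 and R11 was 0.81. Silencing and telomere factors had a median of 0.10 with 11 of 18 higher, and -0.01 after quantile normalization. That median was -0.02 without R11ΔS15 replicate 2, the array with raised chromosome IX, so it rests on a single array. All 3 of these chromatin lists had medians below 0 with the set as a term, at -0.02, -0.09 and -0.03. The median of all genes was then -0.05, so only that of the methyltransferases and ubiquitin enzymes lay below it. Acetyltransferases and deacetylases, remodeling complexes, and condensin, cohesin and topoisomerases had medians of 0.06, -0.03 and 0.02, with 16 of 25, 15 of 35 and 12 of 19 higher. With the set as a term the medians were 0.02, -0.16 and -0.05, and for remodeling complexes 27 of 35 were then lower, beside a WT set difference of 0.15. Of all 5415 genes, 3280 were then lower, and the median WT set difference of all genes was 0.08. The condensin, cohesin and topoisomerase genes had -0.08 for R11ΔS15 replicate 1 and 0.14 for R11ΔS15 replicate 2.

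Chromosome IX stood apart on a single R11ΔS15 array. The median log2 difference of its 188 genes was 0.84 for R11ΔS15 replicate 2 minus the mean of R11 and 0.02 for R11ΔS15 replicate 1. On the 15 other chromosomes the medians were -0.01 to 0.07 for replicate 1 and -0.06 to 0.04 for replicate 2. Relative to the median of all 11 arrays, chromosome IX genes were 1.67-fold higher on R11ΔS15 replicate 2 and also 1.67-fold higher on ΔS15 replicate 1. On the R11 arrays the ratio was 0.984 and 0.967. RPR2, a protein of RNase P, had 115 and 224 in R11ΔS15, against 53.6 and 78.5 in R11. YPS6, an aspartic protease, had 396 and 645 in R11ΔS15, against 214 and 235 in R11, and SDP1, a phosphatase of the cell integrity kinase, had 262 and 374, against 163 and 132. Of the 34 genes that differed 2-fold, 6 lie on this chromosome, and the median of all genes off chromosome IX was 0.01.

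**Figure D4:**
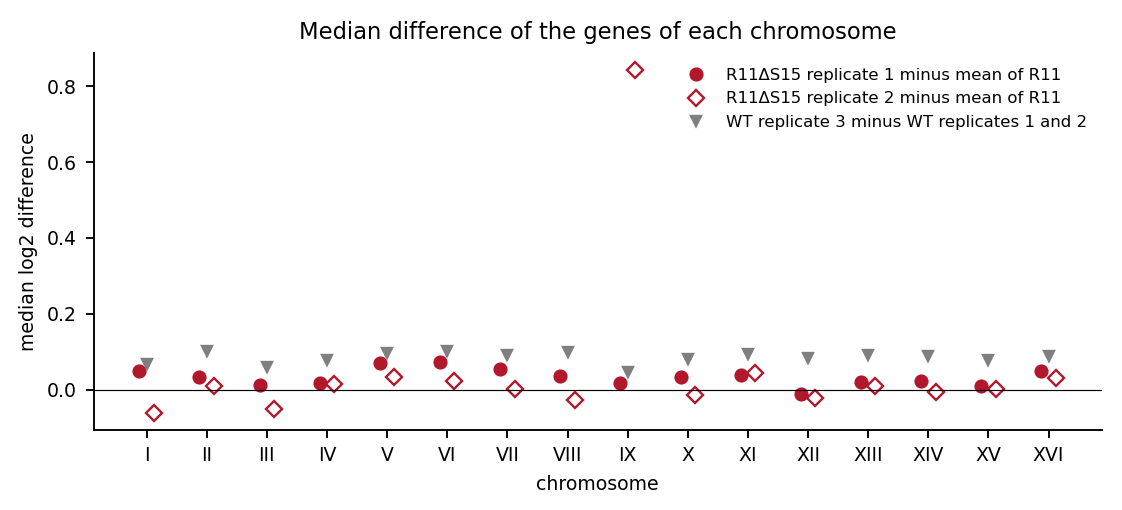
Median log2 difference of the genes of each chromosome, for each R11ΔS15 array minus the mean of R11 and for WT replicate 3 minus WT replicates 1 and 2. Only chromosome IX on R11ΔS15 replicate 2 lies outside -0.06 to 0.10, at 0.84.

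The serine deletion was also made without the arginine, and whether its effect differed with the arginine was tested by the interaction of both changes, R11ΔS15 minus R11 against ΔS15 minus WT. No gene passed, the smallest adjusted p was 0.99995 (limma, Benjamini-Hochberg), and 7 of 5415 genes (0.129%) had an unadjusted p under 0.05. The median standard error of this difference was 0.23 on the log2 scale, which is not a limit of detection, and larger differences could also go unresolved. The 3 WT arrays, of both spike-in sets, entered the spread as 1 group. That no gene passed therefore does not show that the deletion acted alike with and without the arginine. Across genes, R11ΔS15 minus R11 correlated with ΔS15 minus WT with r = 0.80, although they share no array. Both run mostly from the lower to the higher spike-in set, and with WT replicate 3 alone, of the lower set, in place of the 3 WT arrays, r was 0.24. The 34 genes that differed 2-fold all had the same sign in ΔS15 against WT, and 9 of them differed 2-fold there. The same counts over all 5415 genes are not given here, so these are not read as a result about the 34 genes.

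The medians of gene lists were set beside those of ΔS15 against WT, and the differences between them were not tested. Ribosome biogenesis had a median of -0.30 in R11ΔS15 against R11 and of -0.18 in ΔS15 against WT, general stress genes 0.35 and 0.18, and TCA and glyoxylate cycle genes 0.32 and 0.19. Relative to the mean of 11 arrays, ribosome biogenesis lay at -0.17 and 0.03 on the ΔS15 arrays and at -0.21 and -0.20 on the R11ΔS15 arrays. Its ΔS15 median thus rests mainly on ΔS15 replicate 1. Ribosomal proteins had -0.17 in R11ΔS15 against R11 and -0.09 in ΔS15 against WT, and oxidative phosphorylation had 0.16 and 0.09. Against WT replicate 3 alone, of the same spike-in set, the ΔS15 medians were -0.11 for ribosome biogenesis, 0.06 for general stress genes, 0.08 for the TCA and glyoxylate cycles, 0.01 for ribosomal proteins and 0.09 for oxidative phosphorylation. Some lists had opposite signs, but their medians in ΔS15 against WT were near 0. Genes that glucose represses had 0.22 in R11ΔS15 against R11, which rests on a single array, and -0.0024 in ΔS15 against WT. Histone regulators and chaperones had 0.10 and -0.01, and remodeling complexes had -0.03 and 0.03. Histone genes had -0.06 in R11ΔS15 against R11 and -0.07 in ΔS15 against WT. RNA polymerases I and III had -0.09 in both comparisons, and pyrimidine synthesis and marker genes had -0.12 in both. Against WT replicate 3 alone, the ΔS15 medians of these lists were 0.02, -0.07 and -0.0004. RPS25B had a difference of -0.31 in R11ΔS15 against R11 and of -0.07 in ΔS15 against WT, and its interaction was -0.24 ± 0.10 and did not pass. RPP1A, an acidic ribosomal stalk protein outside the choice of named genes, was picked after its values were seen for its low unadjusted p. It had 5824 and 5725 in R11ΔS15, against 6850 and 7556 in R11, a difference of -0.32 with the arginine and 0.07 without it.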

How the data were processed

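RNA was measured on 11 one-color Affymetrix Yeast Genome 2.0 arrays. The authors deposited linear signal intensities from MAS5, that is, after the manufacturer's background correction, probe summary and scaling; the version is not given in the sources used here. The trimmed mean (2% off each end) was 500.2 to 500.3 on every array, so no further scaling was added. Genes were assigned through the annotation of the array and the R64 assembly. Of the 10928 probe sets, 213 were controls, 5498 matched a gene of S. cerevisiae and 1747 one of S. pombe, and the other 3470 were not used. A gene was kept where the mean log2 signal of its brightest probe set exceeded that of 95% of the S. pombe probe sets (signal 5.10), which left 5415 genes.

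On the log2 scale, limma 3.58.1 (R 4.3.3) fitted a coefficient for each strain to all 11 arrays, leaving 6 residual degrees of freedom, with a variance trend on mean signal. P-values were adjusted by Benjamini-Hochberg over the 5415 genes, with a threshold of 0.05. Errors beside log2 differences are standard errors. Genes 2-fold apart were counted without a test. Spike-in sets were split at the widest gap of the mean log2 signal of 12 hybridization controls, and the term for the set rests on the WT arrays alone. Precision is limited by the number of arrays.

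The 43 gene lists came from general knowledge of yeast genes, and 1439 of their 1479 genes were tested. The comparison, the lists and the rules were chosen with earlier results of these data known. Since no gene passed, the genes named were, in each direction, the 12 with the largest difference whose arrays did not overlap between the strains, with an unshared probe set, all 4 arrays above background and a position off chromosome IX. Further ones were 3 such genes of chromosome IX, the histone genes, HIS3, URA3, and members among the 3 of largest moderated statistic in each list whose median was 0.1 or more in size. Genes given as exceptions or ends of a range were chosen after their values were seen.

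The alternatives varied the offset (50) added before log2, the normalization (quantile, centering), the filters, the trend, array weights, the arrays fitted, a replicate block, a spike-in term and chromosome IX. Leaving out both arrays with raised chromosome IX was added after seeing the data. Plots used matplotlib 3.10.9 and Python 3.11.15.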

Additional observations from a re-analysis of the deposited data

How the results depend on the processing

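The count of genes passing between R11ΔS15 and R11 was 0 in the reported fit, 17 with only the strains compared and 0 to 1 when single arrays were left out. With the replicate number as a block it was 130, 53 higher and 77 lower, 14 of which also passed with only the strains compared. The labels tie no batch to these numbers. Across genes, the deviations of same-numbered arrays correlated at -0.02 between R11ΔS15 and R11, and at -0.02 to 0.71 over the 10 pairs of strains, with 5 pairs above 0.1. The interaction had 0 passing genes under every alternative. The 34 genes 2-fold apart were 7 with an offset of 50, 19 at a mean signal of 50 or more, and 32 to 115 without single arrays, the highest without R11ΔS15 replicate 1. Of the 43 lists, 23 had a median of 0.1 or more in size, 15 after quantile normalization, 13 with the spike-in set as a term and 18 to 25 without single arrays. The median of ribosome biogenesis ranged from -0.36 to -0.22 over all alternatives, that of general stress genes from 0.13 to 0.36, and 14 of 23 such medians had 1 sign throughout.

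With the spike-in set as a term the log2 difference took the opposite sign for ATP10 (-0.62), CTF19 (-1.18), YCL042W (-0.61), YJU2 (-0.25), NDI1 (-0.047), SWD1 (-0.087), GPD2 (0.36), RPO21 (0.16), TEF2 (0.053) and GPM1 (0.016). The same held for HHO1 (0.24), CSE4 (0.13), HHF1 (0.085), HTZ1 (0.070), HTB2 (0.043) and HHT1 (0.0042). Quantile normalization gave 0.0022 for HTB1, centering gave -0.0060 for HIS3, and leaving out both arrays with raised chromosome IX gave 0.042 for CSE4. Without single arrays the difference ran from -0.034 to 0.0064 for HHO1, from -0.25 to 0.19 for HHT1, from -0.11 to 0.081 for HTB2, from -0.21 to 0.088 for HHF1, from -0.27 to 0.17 for CSE4 and from -0.13 to 0.22 for HIS3. The cause of these changes was not tested. Dim genes limit the 2-fold count, and 2 arrays a strain limit every test.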

Other observations

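Several other gene groups had medians between -0.09 and 0.09 in R11ΔS15 against R11, beside 0.03 for all genes. DNA replication genes had a median of 0.01, with 26 of 50 higher, and kinetochore and spindle genes 0.00, with 25 of 49 higher. Proteasome genes had 0.01, with 21 of 37 higher, amino acid synthesis genes 0.00, with 32 of 65 higher, and ergosterol synthesis genes -0.02, with 12 of 28 higher. Redox defence genes had -0.01, with 14 of 30 higher, and cell wall and integrity genes -0.06, with 20 of 46 higher. Cyclins and cell cycle regulators had 0.09, with 26 of 37 higher, beside a WT set difference of 0.12. Nuclear pore and transport genes, which move proteins and RNA across the nuclear envelope, had -0.09, with 23 of 39 lower, beside a WT set difference of 0.05. Their median was -0.16 for R11ΔS15 replicate 1 and -0.0078 for R11ΔS15 replicate 2, so it rests on a single array. With the spike-in set as a term, 29 of these 39 were lower, as were 3280 of all 5415 genes.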
